A study of Mus musculus with 8 samples.

Results

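Small nucleolar RNA (snoRNA) host transcripts were followed across 8 RNA-seq libraries of mouse bone marrow cells differentiated towards adipocytes in culture. The 8 members, Gas5, Snhg1, Snhg3, Snhg5, Snhg6, Snhg8, Snhg12 and Snhg15, were taken by gene symbol from a deposited expression table of 54134 genes. All 8 passed the expression filter (1 TPM or more in at least 2 libraries), as did 14985 genes in all. TPM divides reads by gene length and sets every library to one total.

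Wild-type (WT) bone marrow stem cells, labelled BMAd, were differentiated towards adipocytes for 14 days with a commercial adipogenesis kit, a step shared by all groups. Control cells (n = 2) had differentiation as their only labelled treatment. Cells labelled GC (n = 3) then received dexamethasone (DEX), which is a synthetic glucocorticoid, at 1e-06 M over 24 hours. Cells labelled GC+GW9662 (n = 3) received the same DEX with GW9662, which inhibits PPARγ, the transcription factor that drives adipocyte differentiation; no source used here states its dose. The series title places the comparison in the setting of glucocorticoid-stimulated senescence. Whether replicates were separate cultures is not stated in the labels, so the spread behind every p-value may be technical.

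Host genes of this family carry snoRNAs in their introns. After splicing, the excised introns are trimmed to mature snoRNAs, which guide ribose methylation (C/D class) or pseudouridylation (H/ACA class) of ribosomal and other RNAs. The spliced exons left behind code for little or no protein. Many hosts start with a terminal oligopyrimidine (TOP) tract, are loaded onto ribosomes and are then degraded by nonsense-mediated decay, so their levels rise in cells whose translation or growth is slowed. Gas5 was named for its rise in growth-arrested cells, and in human cells its RNA has been described as binding the DNA-binding domain of the glucocorticoid receptor.

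The cargo of each host tells the members apart, so it is shown first. GENCODE M21 places 28 snoRNA rows of the table inside the 8 members on the same strand: 9 in Gas5, 8 in Snhg1, 4 in Snhg12, 2 each in Snhg3 and Snhg5, and 1 each in Snhg6, Snhg8 and Snhg15. The sequences below, from the GENCODE M21 transcripts (GRCm38), stand for these cargoes. Capitals mark the C box (TGATGA) and the D box (CTGA) of the C/D class.
Snord47, in Gas5 (chr1:161038082-161038158, plus strand): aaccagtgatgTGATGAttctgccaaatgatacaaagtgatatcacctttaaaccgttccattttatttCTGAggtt
Snord50a, in Snhg5 (chr9:88521529-88521600, minus strand): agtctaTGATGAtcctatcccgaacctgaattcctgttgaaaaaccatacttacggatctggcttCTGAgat
Snord50b, in Snhg5 (chr9:88521797-88521868, minus strand): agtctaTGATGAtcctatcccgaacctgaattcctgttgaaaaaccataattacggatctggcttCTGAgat
Snord87, in Snhg6 (chr1:9942463-9942549, minus strand): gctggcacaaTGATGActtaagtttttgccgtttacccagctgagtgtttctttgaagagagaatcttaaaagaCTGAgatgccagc
Snord99, in Snhg12 (chr4:132310691-132310764, plus strand): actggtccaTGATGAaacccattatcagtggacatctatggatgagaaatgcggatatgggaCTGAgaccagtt
The Snhg5 pair differ by 1 substitution, C50A, counted from 1 at the 5′ end with the base of Snord50a first.

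In the H/ACA class the capitals mark the ACA box, which sits 3 bases from the 3′ end.
Snora24, in Snhg8 (chr3:123507937-123508066, minus strand): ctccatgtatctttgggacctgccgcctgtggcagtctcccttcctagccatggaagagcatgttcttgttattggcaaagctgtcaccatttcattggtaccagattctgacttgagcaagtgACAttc
Snora61, in Snhg12 (chr4:132310240-132310369, plus strand): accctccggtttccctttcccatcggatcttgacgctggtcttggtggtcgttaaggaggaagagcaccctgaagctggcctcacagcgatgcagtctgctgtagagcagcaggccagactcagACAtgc
Snora9, in Snhg15 (chr11:6528033-6528165, minus strand): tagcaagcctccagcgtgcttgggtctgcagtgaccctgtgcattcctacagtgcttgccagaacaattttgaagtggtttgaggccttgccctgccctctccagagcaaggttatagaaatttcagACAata
By these boxes 17 of the 28 sequences held both a C and a D box, 6 held an ACA box at that place and 5 held neither as spelled. Gas5, Snhg1, Snhg5 and Snhg6 are thus described below as C/D hosts, Snhg3, Snhg8 and Snhg15 as H/ACA hosts, and Snhg12 as a host of both.

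**Figure D1:**
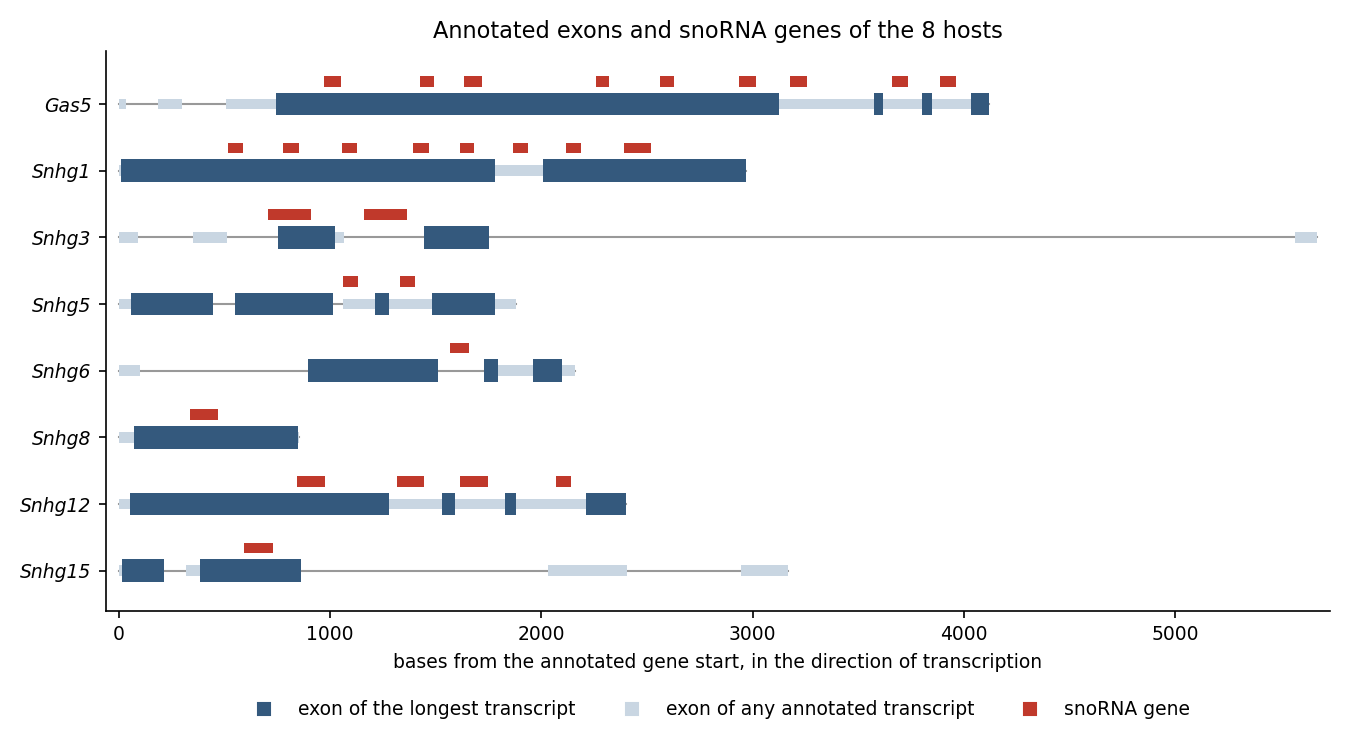
Annotated exons and snoRNA genes of the 8 hosts; the x axis gives bases from the annotated gene start in the direction of transcription, dark boxes are exons of the longest transcript, pale boxes exons of any annotated transcript and red boxes snoRNA genes. Gas5 carries 9 snoRNAs and Snhg8 carries 1, and 17 of the 28 snoRNAs touch an exon of the longest transcript.

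The starts of the members are shown because hosts of this family are known for TOP tracts. RefSeq promoter sequences (GRCm38.p6) were matched by symbol for 7 of the 8 members, with 2 starts for Gas5; Snhg6 had no match. The windows run from 25 bases before the start to the 25 bases from the start on, on the transcribed strand, which is the minus strand for Snhg3, Snhg5, Snhg8 and Snhg15. Capitals mark a C followed by at least 4 bases that are each C or T, found within 20 bases of the start.
Gas5, first start (chr1:161034576-161034625): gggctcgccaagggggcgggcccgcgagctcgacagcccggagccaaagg
Gas5, second start (chr1:161035141-161035190): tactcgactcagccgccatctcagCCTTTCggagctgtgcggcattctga
Snhg1 (chr19:8723462-8723511): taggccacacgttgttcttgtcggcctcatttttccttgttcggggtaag
Snhg3 (chr4:132353662-132353711): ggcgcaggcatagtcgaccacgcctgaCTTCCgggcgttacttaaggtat
Snhg5 (chr9:88522873-88522922): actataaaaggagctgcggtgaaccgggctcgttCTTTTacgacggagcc
Snhg8 (chr3:123508312-123508361): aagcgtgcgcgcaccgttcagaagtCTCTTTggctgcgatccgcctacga
Snhg12 (chr4:132308653-132308702): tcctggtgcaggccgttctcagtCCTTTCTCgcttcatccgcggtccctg
Snhg15 (chr11:6528736-6528785): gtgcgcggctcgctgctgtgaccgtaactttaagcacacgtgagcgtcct
Such a tract was found at a start of 5 of the 7 members with a promoter (Gas5 at its second start, Snhg3, Snhg5, Snhg8 and Snhg12). Counted by window, as for the shares that follow, it was found in 5 of 8. The same search found one in 45.9% of all 32851 RefSeq promoter windows and in 47.0% of the 12668 windows of tested genes. The windows without capitals hold no such tract at this place, and nothing follows from that about how those RNAs start in these cells.

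Some facts of the whole series bear on every value below. Depth, recovered from the steps between TPM values, was estimated at 17449772 to 26541336 reads per library. Members were covered by 95 to 328 reads per library for Snhg15, the lowest, and by 4403 to 10652 for Gas5, the highest. The reads were amplified and carry no molecular identifiers, so such depths limit counting error only. Fkbp5 and Tsc22d3, classical glucocorticoid-induced genes, went against the labels: mean TPM over Control, GC and GC+GW9662 was 446, 58.5 and 95.4 for Fkbp5 and 557, 59.6 and 429 for Tsc22d3. Groups are therefore called by their labels throughout, and every direction is that of the labels. Where the text says treated or with GW9662, the labels are meant. Summed TPM of 8 adipocyte markers ran from 1195 to 1196 in Control, 36.7 to 52.6 in GC and 1110 to 1256 in GC+GW9662, with Lep at 0 in every library. Summed macrophage markers (9 genes) ran from 30900 to 31810, 9441 to 9988 and 24440 to 28420, although Cd68 alone among them was called higher in GC than in Control (means of 979, 2651 and 594 TPM). Summed stroma and myofibroblast markers (7 genes) ran from 9265 to 9415, 295 to 369 and 8489 to 8550. The macrophage sum lay above the adipocyte sum in every library, although the lists differ in length. Of 5 neutrophil markers, 1 averaged at least 1 TPM in a group, and their sum was 20 to 26.0, 249 to 549 and 71.1 to 82.4; Elane was at 0 in all GC libraries and Ly6g in all libraries of the other groups. Lymphocyte, erythroid and endothelial markers summed to at most 20.2 TPM in any library. The marker levels moved with the groups compared below; their part in the results was not tested. In bulk samples a lower share of cells of a type and less RNA per cell cannot be told apart.

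The first comparison set the libraries labelled GC against those labelled Control. All 8 members were higher in the libraries labelled GC than in Control (limma on log2(TPM + 1), two-sided, Benjamini-Hochberg adjusted p under 0.05 over all tested genes), and the groups did not overlap for any of them. Of all tested genes 16.2% rose and 39.1% fell, and 22.2% had every GC library above both Control libraries. The median difference was 1.12 over the members and -0.38 over all 14985 genes, on the log2 scale. Over the 5809 tested genes with lengths in the members' range (581 to 2728 bases) it was -0.15. The largest differences among the members were those of Snhg3, Snhg5 and Snhg1.

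Snhg3 (chr4:132348014-132353686, minus strand), host of the H/ACA snoRNAs Snora73a and Snora73b, had 21.1 and 19.1 TPM in the Control libraries. It had 360, 205 and 247 TPM in those labelled GC, and 44.7, 56.2 and 48.1 in those labelled GC+GW9662. The GC values lay far above both other groups, and the GC+GW9662 values lay above Control without overlap. The log2 difference between GC and Control was 3.65 ± 0.23 (SE; limma adjusted p = 6.8e-06), a 12.5-fold difference on the log2(TPM + 1) scale, which understates low genes.

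Snhg5 (chr9:88521050-88522929, minus strand) carries the C/D pair printed above. Its level was 9.20 and 13.0 TPM in Control, 88.0, 82.6 and 83.1 in GC, then 23.2, 19.5 and 19.8 with GW9662. The 3 groups were fully apart, and the GC libraries lay close together. GC exceeded Control by 2.84 ± 0.17 (SE, log2; limma adjusted p = 5.1e-06).

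Snhg1 (chr19:8723475-8726443, plus strand), a C/D host with 8 snoRNA rows, had 18.4 and 23.8 TPM in Control, 121, 71.9 and 89.8 in GC, then 53.4, 61.1 and 55.0 with GW9662. Here too the groups were apart, but the GC+GW9662 values lay closer to GC than those of Snhg3 and Snhg5 did. The difference between GC and Control was 2.09 ± 0.22 (SE, log2; limma adjusted p = 1e-04).

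Gas5 (chr1:161034422-161038539, plus strand) was the most abundant member in each group. It had 163 and 194 TPM in Control, 401, 282 and 336 in GC, then 334, 361 and 343 with GW9662. The GC+GW9662 libraries fell inside the range of the GC libraries, and both groups lay above Control. GC exceeded Control by 0.92 ± 0.16 (SE, log2; limma adjusted p = 0.0014), a 1.89-fold difference.

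The C/D host Snhg6 (chr1:9941959-9944118, minus strand) had 55.6 and 68.8 TPM in Control, 180, 98.8 and 135 in GC, then 152, 194 and 182 with GW9662. The H/ACA host Snhg8 (chr3:123507552-123508404, minus strand) had 77.6 and 94.5, then 206, 126 and 157, then 174, 244 and 200. In both genes Control was lowest and the treated groups overlapped. GC exceeded Control by 1.10 ± 0.24 for Snhg6 (SE, log2; limma adjusted p = 0.0052) and by 0.89 ± 0.22 for Snhg8 (adjusted p = 0.0099).

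Snhg12 (chr4:132308623-132311024, plus strand), which carries snoRNAs of both classes, had 31.8 and 34.4 TPM in Control, 74.9, 49.0 and 59.9 in GC, then 52.8, 77.5 and 73.5 with GW9662. Snhg15 (chr11:6525591-6528760, minus strand), described in human cells as a short-lived RNA, had 13.3 and 16.4, then 37.2, 26.8 and 39.2, then 29.6, 24.4 and 34.8. Again the treated groups overlapped each other and not Control. GC exceeded Control by 0.85 ± 0.22 for Snhg12 (SE, log2; limma adjusted p = 0.011) and by 1.15 ± 0.22 for Snhg15 (adjusted p = 0.0025). Without Control replicate 1 the calls of Snhg8 (0.75, limma adjusted p = 0.082) and Snhg12 (0.79, adjusted p = 0.074) were lost; that fit takes the 1 Control library left to vary like the other groups.

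**Figure D2:**
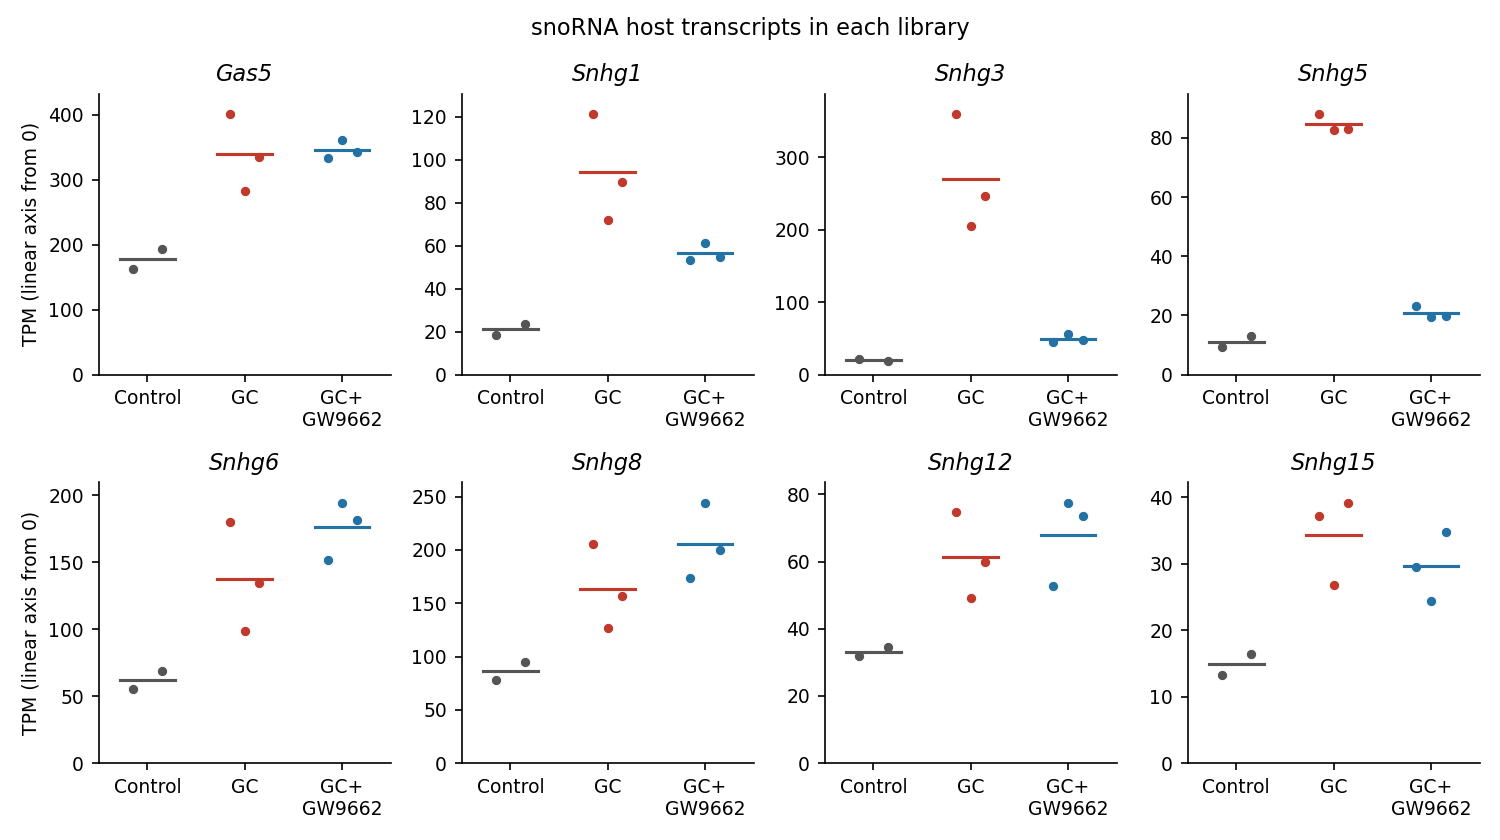
TPM of each member (y axis, linear from 0) in Control, GC and GC+GW9662; each point is 1 library and each bar the group mean (n = 2, 3 and 3). Control is the lowest group in all 8 panels, and the GC+GW9662 points lie below every GC point for Snhg1, Snhg3 and Snhg5 and overlap them for the other 5.

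Replicate 1 of the GC group stood apart from its group. It was the highest GC library for 7 of the 8 members, Snhg15 being the exception, and exceeded the mean of replicates 2 and 3 by 0.09 (Snhg5) to 0.67 (Snhg3) on the log2 scale, with a median of 0.50. All tested genes in the members' length range had a median of 0.056 in the same contrast, and 7731 longer genes had -0.52. Replicate 1 also had the fewest reads of its group, 17695907 against 25636577 and 24961581. The part of depth or gene length in the members' values was not tested.

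The second comparison set the libraries labelled GC+GW9662 against those labelled GC. Snhg3, Snhg5 and Snhg1 were lower in the libraries labelled GC+GW9662 than in GC, and the other 5 members did not pass the test. Of all tested genes 28.3% rose and 33.5% fell, and 33.8% had every GC+GW9662 library below every GC library, so 3 of 8 members lower is a share near the background. The median difference was -0.08 over the members, -0.11 over all genes and 0.21 over genes of similar length (log2).

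Snhg3 fell by 2.39 on the log2 scale (SE 0.20, limma adjusted p = 3.4e-05) and Snhg5 fell by 1.98 (SE 0.15, adjusted p = 1.8e-05). Their mean levels in GC+GW9662 were 49.7 ± 5.94 and 20.8 ± 2.05 TPM (SD, n = 3), against 271 ± 79.8 and 84.6 ± 2.96 in GC. Snhg1 fell by 0.70 (SE 0.20, limma adjusted p = 0.015), from 94.3 ± 24.9 to 56.5 ± 4.08 TPM (SD, n = 3). That call was lost under median-ratio scaling (-0.54, limma adjusted p = 0.13), after removal of a length trend (-0.59, 0.064) and in voom on recovered reads (-0.44, 0.15).

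The differences of the other members were small beside their errors. Gas5 differed by 0.04 ± 0.14 (SE, log2; limma adjusted p = 0.81), Snhg12 by 0.15 ± 0.19 (0.53) and Snhg15 by -0.21 ± 0.20 (0.38). Snhg6 differed by 0.39 ± 0.22 (0.15) and Snhg8 by 0.35 ± 0.20 (0.16). These p-values do not show that the levels were alike. Without GC replicate 1, Snhg6 (0.60, limma adjusted p = 0.011) and Snhg8 (0.53, adjusted p = 0.018) were called higher in GC+GW9662. Snhg15 was called lower after removal of a length trend (-0.56, adjusted p = 0.031), while voom on recovered reads gave 0.050 (adjusted p = 0.86).

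GC+GW9662 was also compared with Control; this shares its libraries with both comparisons above, so the values are set side by side and not counted as further support. All 8 members were higher than in Control, by 0.86 ± 0.17 (Snhg5) to 1.49 ± 0.24 (Snhg6) on the log2 scale, with limma adjusted p of 0.0022 to 0.0066 and no overlap between the groups. Of all tested genes 14.1% rose and 48.6% fell, and 21.6% had every GC+GW9662 library above both Control libraries. The median difference was 1.12 over the members, -0.49 over all genes and 0.04 over genes of similar length. Snhg3 differed by 1.26 ± 0.23 (SE, log2) and Snhg1 by 1.39 ± 0.22, so both kept a level above Control. The call of Snhg15 (0.94 ± 0.22) was lost after removal of a length trend (0.47, limma adjusted p = 0.10) and without Control replicate 1 (0.80, adjusted p = 0.062). With the trend removed Snhg3 differed by 0.76 (adjusted p = 0.0095).

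**Figure D3:**
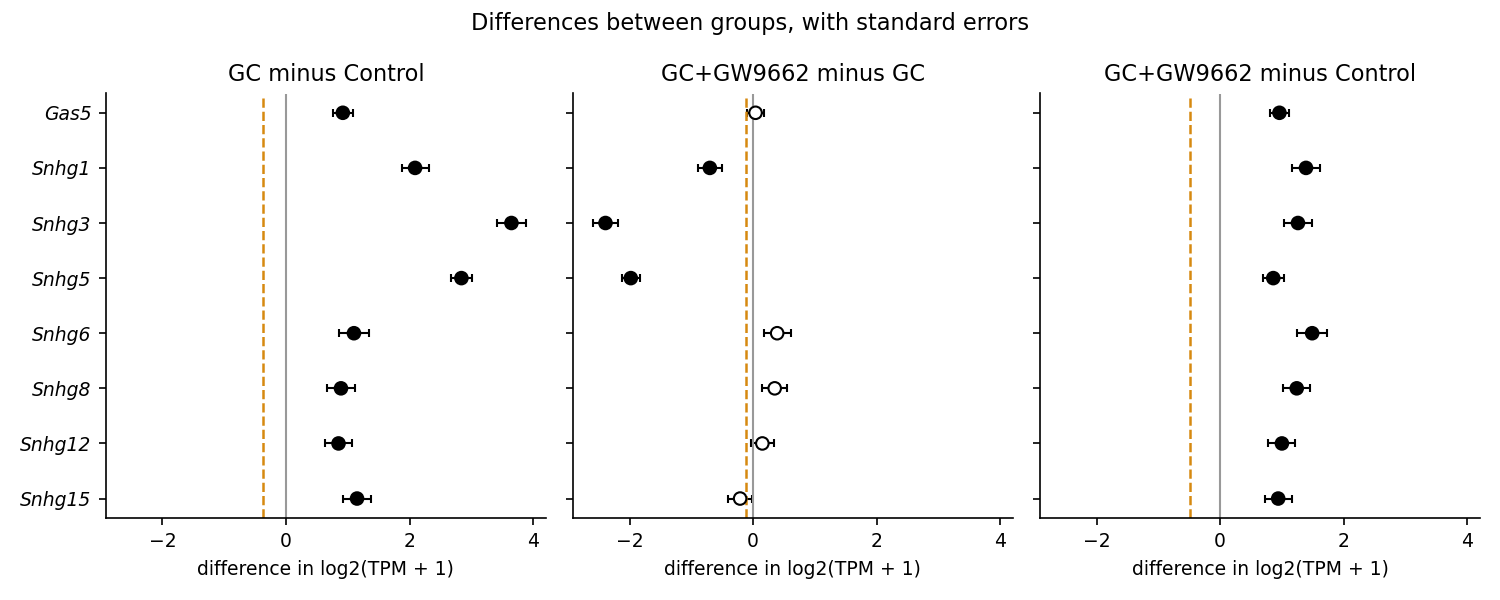
Difference in log2(TPM + 1) between the groups named above each panel (x axis) for the 8 members; filled points passed limma's adjusted p of 0.05, open points did not, bars are standard errors and the dashed line is the median of all 14985 tested genes. All 8 points lie right of 0 in both comparisons with Control, and only Snhg1, Snhg3 and Snhg5 passed, to the left of 0, in the middle panel.

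Scaling bears on how these counts read. Median-ratio scaling moved the all-gene median of GC against Control from -0.38 to 0.05, and 4112 genes were then called higher and 3971 lower, in place of 2428 and 5863. In GC+GW9662 against Control the numbers were 4502 higher and 4599 lower, in place of 2114 and 7284. All 8 members remained called higher in both comparisons under that scaling.

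The make-up of the pool changed with the groups. The 8 transcripts summed to 390 and 464 TPM in Control, 943 to 1468 in GC and 864 to 1038 in GC+GW9662. Snhg3 made up 4.11 to 5.42% of this sum in Control, 21.5 to 24.5% in GC and 5.03 to 5.42% in GC+GW9662. Its GC share stood apart from both other groups. Snhg5 went from 2.36 to 2.81% through 5.99 to 8.76% to 1.88 to 2.68%. Gas5 took 41.7 to 41.8% in Control, 27.3 to 29.9% in GC and 34.8 to 38.7% in GC+GW9662, so its share was lowest in GC although its level there overlapped that in GC+GW9662. The ratio of Snhg3 to Gas5 TPM was 0.0984 and 0.130 in Control, 0.897, 0.728 and 0.735 in GC, then 0.134, 0.156 and 0.140 with GW9662. A ratio within a library does not depend on how libraries are scaled to each other. It shows unequal change of the pair's TPM and not which of them changed. A trend with gene length can still enter it, as Snhg3 has 581 bases and Gas5 2556. With the length trend removed, GC exceeded Control by 3.52 for Snhg3 and 1.33 for Gas5 (log2), in place of 3.65 and 0.92. In GC+GW9662 against Control, Snhg3 then had 0.76 in place of 1.26. The ratio itself was not computed with that trend removed.

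**Figure D4:**
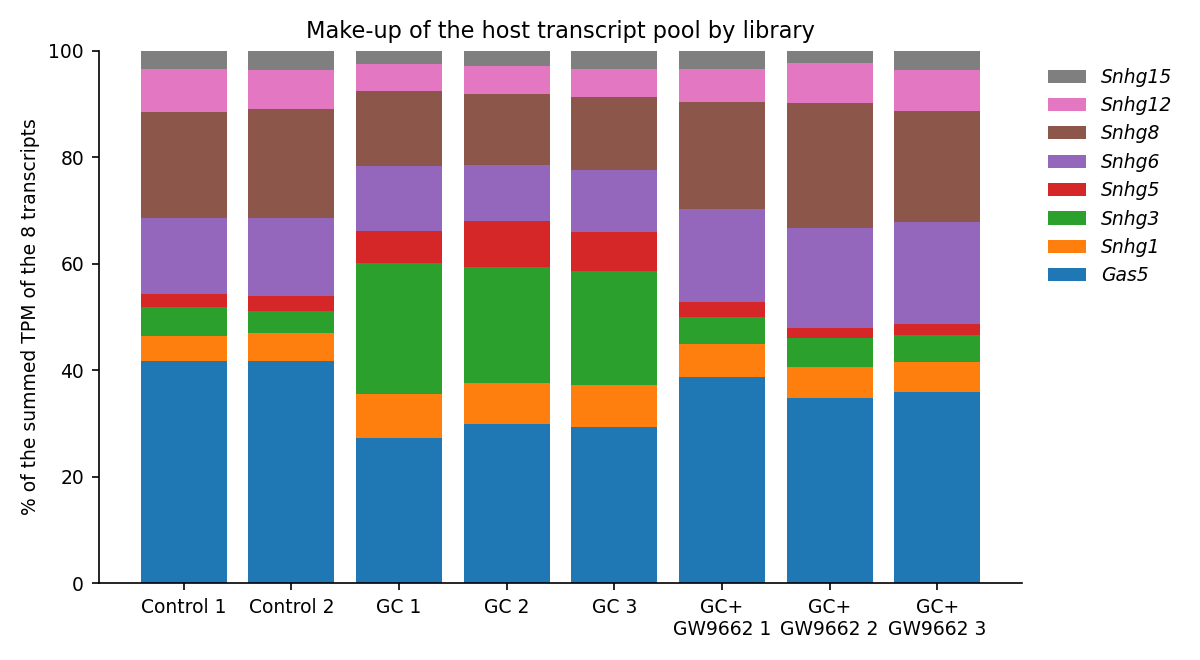
Share of each member (y axis, % of the summed TPM of the 8 transcripts) in each library. The Snhg3 band is 21.5 to 24.5% in the 3 GC libraries and at most 5.42% in every other library.

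The order of the levels differed between groups as well. In Control the mean TPM ran from Gas5 (178 ± 22.2, SD, n = 2) through Snhg8 (86.1), Snhg6 (62.2), Snhg12 (33.1), Snhg1 (21.1), Snhg3 (20.1) and Snhg15 (14.9) to Snhg5 (11.1). Snhg1 and Snhg3 were the only neighbours in this order whose libraries overlapped. In GC the order was Gas5 (340 ± 59.4, SD, n = 3), Snhg3 (271), Snhg8 (163), Snhg6 (138), Snhg1 (94.3), Snhg5 (84.6), Snhg12 (61.2) and Snhg15 (34.4), and each neighbour overlapped the next down to Snhg5. GC+GW9662 had Gas5 (346 ± 13.6, SD, n = 3), Snhg8 (206), Snhg6 (176), Snhg12 (67.9), Snhg1 (56.5), Snhg3 (49.7), Snhg15 (29.6) and Snhg5 (20.8), with overlaps between Snhg8 and Snhg6, Snhg12 and Snhg1, and Snhg1 and Snhg3. The lengths behind these TPM were those of the longest annotated transcript, from 581 bases (Snhg3) to 2728 (Snhg1). For Gas5, Snhg1, Snhg5 and Snhg8 that transcript is a retained-intron model. Annotated exons cover more bases than that length in every member, as in Snhg15 (1359 against 675) and Snhg3 (986 against 581). How reads outside that transcript were counted is not stated. Levels therefore compare spliced RNAs of different hosts only roughly.

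The snoRNAs themselves were almost not seen in these libraries. Of the 28 snoRNA rows inside the members, 25 were at 0 in every library, and the other 3 (Snora73a, Snora73b and Snord87) reached at most 16 reads in a library. Smart-Seq2 primes on poly(A) tails, which mature snoRNAs lack. Moreover 26 of the 28 touch an annotated exon of their host, and no source used here says how a read within 2 annotated genes was counted. The host levels above therefore say nothing about the amounts of mature snoRNA.

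Genes that share a start or bases with a member were examined because such libraries carry no strand. Slc3a2, the heavy chain of amino acid transporters such as the cystine and large neutral amino acid exchangers, starts 106 bases from Snhg1 on the other strand, without overlap. It had 992 and 950 TPM in Control, 4547, 5299 and 5063 in GC, then 693, 578 and 665 with GW9662. The GC libraries stood far above the rest, and GC+GW9662 was the lowest group. Slc3a2 rose by 2.35 ± 0.12 in GC against Control (SE, log2; limma adjusted p = 2.2e-06). It fell by 2.94 in GC+GW9662 against GC (SE 0.10, limma adjusted p = 5.2e-07), to a level below Control (-0.59 ± 0.12, adjusted p = 0.0036), whereas Snhg1 remained above Control.

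Rcc1, the nucleotide exchange factor of the GTPase Ran, overlaps Snhg3 on the same strand. The annotated starts lie 81 bases apart, and 135 bases, 13.7% of the exon bases of Snhg3, are shared, so reads there cannot be assigned to one of the genes. Rcc1 had 22.0 and 17.4 TPM in Control, 51.2, 43.5 and 46.7 in GC, then 20.2, 20.4 and 21.4 with GW9662. It rose by 1.22 ± 0.15 in GC (SE, log2; limma adjusted p = 2.1e-04) and fell by 1.15 in GC+GW9662 against GC (SE 0.13, adjusted p = 1.7e-04), ending 0.07 ± 0.15 from Control (adjusted p = 0.68). The antisense Gm17300, which covers 71.5% of the exon bases of Snhg3, reached at most 0.178 TPM in any library. Zbtb37, a zinc finger gene opposite the start of Gas5, averaged 1.53, 0.439 and 0.268 TPM over Control, GC and GC+GW9662, and Mcmdc2, opposite the end of Snhg6, was at 0 in 7 of the 8 libraries and at 0.0581 TPM in Control replicate 1.

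**Figure D5:**
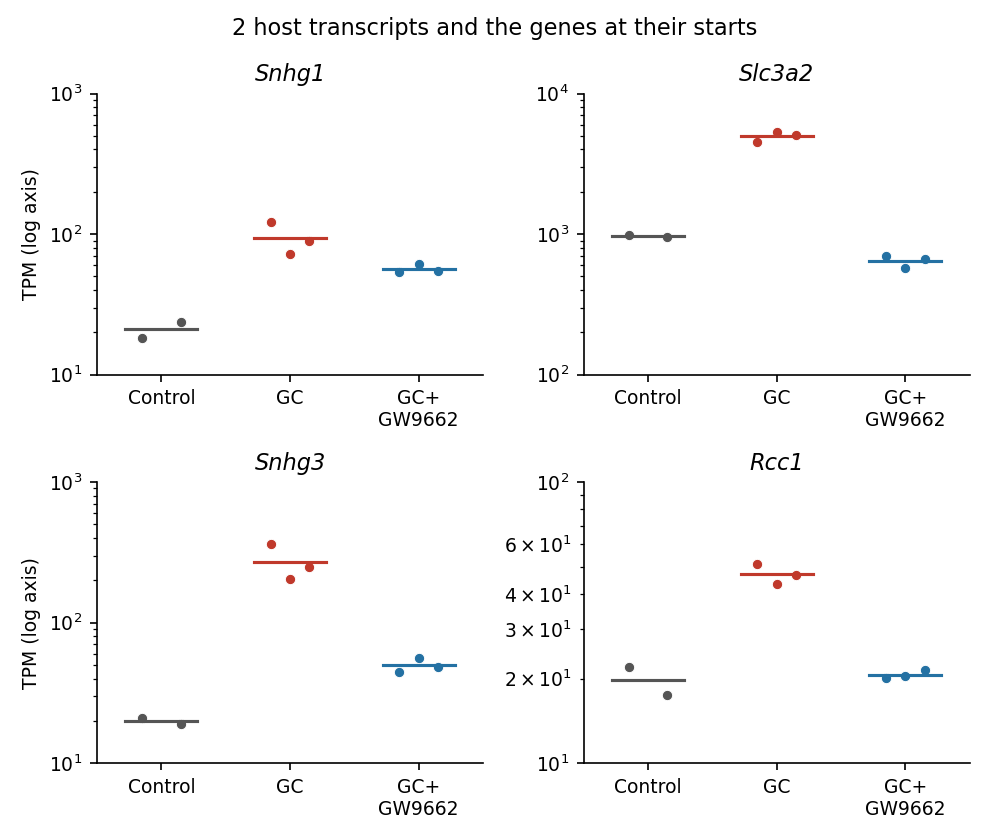
TPM (y axis, log scale, ranges differ between panels) of Snhg1 and Slc3a2, which start 106 bases apart on opposite strands, and of Snhg3 and Rcc1, which overlap on one strand; points are libraries and bars group means (n = 2, 3 and 3). All 4 genes are highest in GC; in GC+GW9662 Slc3a2 lies below Control, Rcc1 overlaps it and both host transcripts lie above it.

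Other non-coding snoRNA hosts came from a list of 13, of which Snhg7 and Snhg16 were not analysed here and Snhg11 and Snhg14 did not reach the expression filter. Of the 9 tested, 7 rose, 1 fell and 1 was not called in GC against Control, beside 16.2% higher and 39.1% lower over all genes. In GC+GW9662 against GC 1 rose, 5 fell and 3 were not called (28.3% and 33.5% over all genes), and against Control 6 rose and 3 were not called (14.1% and 48.6%). Dancr reached 1 TPM in GC libraries alone, so the group where it is high let it pass the filter; without it 6 of 8 rose in GC and 4 of 8 fell in GC+GW9662 against GC. Snhg9 had 0.516 and 1.44 TPM in Control, 37.2, 25.3 and 34.8 in GC, then 1.59, 4.50 and 3.95 with GW9662, a rise of 4.10 ± 0.37 (SE, log2; limma adjusted p = 4.9e-05) and then a difference of -3.0 ± 0.33 (adjusted p = 1.5e-04). Its 3 GC libraries lay far above the other 5.

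Snhg10, Snhg17 and Snhg20 also rose in GC and were lower in GC+GW9662 than in GC. Their rises were 1.49, 1.29 and 1.74 and the second differences -0.85, -1.04 and -1.14 (log2; limma adjusted p of 3.0e-04 to 0.0045 and of 9.3e-04 to 0.031). Dancr averaged 0.249, 1.38 and 0.252 TPM over Control, GC and GC+GW9662. Zfas1, a host of C/D snoRNAs opposite the start of Znfx1, went from a mean of 41.4 TPM in Control to 93.9 in GC and 97.7 in GC+GW9662. Reads of this gene and of Znfx1 cannot be told apart where they overlap. Zfas1 rose by 1.14 ± 0.22 in GC (SE, log2; limma adjusted p = 0.0029). Snhg4 rose by 1.10 ± 0.27 (adjusted p = 0.0087), to a mean of 9.11 TPM in GC and 10.1 in GC+GW9662. Epb41l4aos averaged 44.7, 64.3 and 82.6 TPM; its difference in GC was 0.50 ± 0.20 (adjusted p = 0.065).

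Snhg18 went the other way. It had 28.7 and 41.1 TPM in Control, 18.3, 13.4 and 12.4 in GC, then 64.0, 89.5 and 73.2 with GW9662, with no overlap between any 2 groups. It fell by 1.19 in GC (SE 0.23, log2; limma adjusted p = 0.0028) and rose by 2.29 ± 0.21 in GC+GW9662 against GC (adjusted p = 4.8e-05).

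Protein-coding snoRNA hosts, most of them ribosomal proteins and translation factors, were mostly not called in GC. Of 23 tested, 7 rose and 16 were not called in GC against Control (median 0.35, all genes -0.38, log2; 16.2% of all genes rose). In GC+GW9662 against GC 10 rose, 6 fell and 7 were not called (median 0.43, all genes -0.11; 28.3% rose and 33.5% fell), and against Control 13 rose, 5 fell and 5 were not called (median 0.71, all genes -0.49; 14.1% and 48.6%). Rpl23 and Rpl13a, proteins of the large ribosomal subunit, and the elongation factor subunit Eef1b2 rose against Control by 0.81, 1.13 and 1.22 (limma adjusted p of 0.0017 to 0.0021). Nop56, which hosts snoRNAs and is itself a core protein of C/D particles, averaged 21.9 TPM in Control, 63.7 in GC and 7.41 with GW9662 added. It rose by 1.45 (limma adjusted p = 0.0022) and then differed by -2.90 between GC+GW9662 and GC (adjusted p = 3.0e-05).

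Proteins that bind and assemble snoRNAs showed no single direction in GC. Of 18 tested, 6 rose, 2 fell and 10 were not called (median -0.18, all genes -0.38, log2; 16.2% of all genes rose and 39.1% fell). GC replicate 1 was the lowest GC library for 11 of the 18. Without it, in counts made after the data were seen, 7 rose, 4 fell and 7 were not called (median -0.07). Members of the H/ACA core differed: Nhp2 and Nop10 rose by 1.18 and 0.94 (limma adjusted p = 0.0019 and 0.0022), the pseudouridine synthase Dkc1 fell by 1.45 (adjusted p = 0.022) and Gar1 differed by -0.17 (adjusted p = 0.52). In GC replicates 1, 2 and 3 Dkc1 had 1.785, 5.595 and 3.765 TPM, and Nhp2 had 396, 231 and 289. Znhit6, an assembly factor of C/D particles, fell by 1.99 (adjusted p = 3.7e-04). In GC+GW9662 against GC 2 rose, 9 fell and 7 were not called (median -0.54, all genes -0.11; 28.3% rose and 33.5% fell), and against Control 5 rose, 11 fell and 2 were not called (median -0.72, all genes -0.49; 14.1% and 48.6%). The assembly factors Rpap3 and Nufip1 fell by 1.79 and 1.26 in the former (limma adjusted p = 0.0013 and 8.6e-04), while Pih1d1 rose by 0.85 (adjusted p = 6.0e-04). Nop58, the partner of Nop56, had -2.16 against Control (adjusted p = 0.0043).

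Factors of nonsense-mediated decay, the pathway that removes spliced host RNAs, were counted last. Of 16 tested, 2 rose, 3 fell and 11 were not called in GC against Control (median -0.16, all genes -0.38, log2; 16.2% of all genes rose and 39.1% fell). With GW9662 added, against GC, 1 rose, 12 fell and 3 were not called (median -1.02, all genes -0.11; 28.3% and 33.5%), and against Control 1 rose, 14 fell and 1 was not called (median -1.55, all genes -0.49; 14.1% and 48.6%). GC replicate 1 was the lowest GC library for 15 of the 16; without it, in a fit added after the data were seen, 4 rose, 4 fell and 8 were not called in GC against Control (median 0.12), and 14 fell in GC+GW9662 against GC (median -1.37). Upf3b and Smg6, an exon junction adaptor and the endonuclease, fell by 1.30 and 1.47 in GC (limma adjusted p = 9.9e-04 and 0.017), and Smg9, a subunit of the kinase complex that phosphorylates Upf1, rose by 0.79 (adjusted p = 0.018). In GC+GW9662 against GC, Smg9, Smg8 and Smg5 fell by 2.31, 1.99 and 2.16 (limma adjusted p = 4.1e-05, 6.9e-04 and 0.0017). Upf1, the central helicase, had 28.5 and 26.1 TPM in Control, 6.55, 22.3 and 18.1 in GC, then 4.36, 5.13 and 4.93 with GW9662. GC replicate 1 lay near the GC+GW9662 libraries and the other GC libraries nearer to Control. The difference of Upf1 in GC was -0.92 (limma adjusted p = 0.10), or -0.42 without GC replicate 1 (adjusted p = 0.038), and it fell by 2.29 in GC+GW9662 against Control (adjusted p = 0.0032). Over tested genes in the members' length range the median of GC+GW9662 against Control was 0.04, beside -0.49 over all genes. The part of gene length in the counts of these lists was not tested.

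For each member the tested gene whose log2(TPM + 1) followed it most closely over the 8 libraries was looked up among 8778 genes with a mean of at least 5 TPM. Pearson's r is given as a description, since the 8 points fall into 3 groups and share scaling and depth. Eloc, an elongin subunit, was closest to Gas5 (r = 0.995), with mean TPM of 135, 243 and 240 over the 3 groups in the order above. Fbxo6 was closest to Snhg1 (0.998; 64.1, 166 and 118 TPM), Cldnd1 to Snhg3 (0.999; 64.4, 163 and 90.5 TPM) and Ube2s, a ubiquitin-conjugating enzyme, to Snhg5 (0.998; 3.25, 14.9 and 5.33 TPM). Mrpl57, a mitochondrial ribosomal protein, was closest to Snhg6 (0.996), Fam96b to Snhg8 (0.992), the iron-sulfur cluster factor Isca2 to Snhg12 (0.989) and the complex I assembly factor Ndufaf2 to Snhg15 (0.966). Each gene was picked for its match to the member, so its group means follow from that choice and are no separate result. Thus the genes closest to Snhg1, Snhg3 and Snhg5 had their highest means in GC, and those closest to Snhg6, Snhg8 and Snhg12 had theirs in GC+GW9662.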

How the data were processed

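The authors deposited a table of TPM values with a column per library (2 Control, 3 GC, 3 GC+GW9662). The submitters' processing notes name HISAT2 2.1.0, featureCounts and fastp; the build, the annotation and the settings are not given in the sources used here. Starts and ends matched GENCODE M21 in 97.6% of 54232 rows. TPM times the longest M21 transcript gave whole reads (tolerance 0.02) for 25918 of 26812 genes above 0, hence the depths of 17449772 to 26541336 reads.

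A gene was tested if 2 or more libraries reached 1 TPM. The test was limma 3.58.1 (R 4.3.3, package data.table at version 1.17.8) on log2(TPM + 1), fitted to group means over all 8 libraries with a prior that follows mean expression; p-values were two-sided and adjusted by Benjamini-Hochberg in each comparison, with a threshold of 0.05. The procedure was also run on simulated data of independent normal values with known changes. That setting holds no scaling shift, length trend or outlying library, so it gives no support to the calls made here. Tables and figures used Python 3.11.15, numpy 2.4.6, pandas 2.3.3 and matplotlib 3.10.9.

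The members and lists were chosen with earlier results of these data known. Named were all members, all tested other non-coding hosts, up to 4 called genes of smallest adjusted p per other list and comparison (examples are given, and 1 gene the rule takes is not reported here), genes overlapping a member or at its start, and 1 gene of closest profile per member; Upf1, Dkc1 and Gar1 in GC against Control and the marker Cd68 are outside that rule and were picked with their values in view. Alternatives changed the pseudocount, filter, scaling, length trend, prior, libraries, replicate block and test (voom on recovered reads). Deviations from the group means correlated at -0.10, -0.12 and 0.08 between GC and GC+GW9662 libraries of the same number. Between unlike numbers they correlated at -0.10 to 0.14. With 3 libraries in each of these groups, such values cannot decide whether the libraries were paired. No 2 libraries of a group agreed within counting noise, so each was counted once.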

Additional observations from a re-analysis of the deposited data

How the results depend on the processing

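Over 22 alternative settings, 513 of the 528 differences of the 8 members (24 results) kept their direction and their side of the threshold. The rises of Gas5, Snhg1, Snhg3, Snhg5, Snhg6 and Snhg15 in GC against Control, and the falls of Snhg3 and Snhg5 in GC+GW9662 against GC, did so in all 22. Snhg6 lay barely inside the threshold without Control replicate 1 (log2 difference of 0.95). The calls lost for Snhg1, Snhg8, Snhg12 and Snhg15 are given with the results above. Differences that did not pass the test and changed sign in GC+GW9662 against GC were those of Gas5 (-0.17 with quantile normalization, -0.10 with rescaling without mitochondrial and the top 20 genes, -0.085 without GC replicate 2 in a range of -0.085 to 0.17 with 1 library left out), Snhg12 (-0.10 with the length trend removed) and Snhg15 (0.050 in voom on recovered reads); the cause was not tested. Leaving out 1 library at a time gave 6 to 8 members higher in GC against Control, 7 to 8 in GC+GW9662 against Control, and 3 lower with 0 to 2 higher in GC+GW9662 against GC.

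Over all genes, those called higher in GC against Control numbered 2428, 4112 with median-ratio scaling, 4187 with quantile normalization and 4315 with the length trend removed. Those called lower numbered 5863, and 3876 to 6303 over the fits that left out 1 library. In GC+GW9662 against Control 2114 were higher, against 4502 with median-ratio scaling, 4216 with quantile normalization, 3431 with the length trend removed, 3657 in voom on recovered reads and 902 to 2580 with 1 library left out, where 902 was without Control replicate 1. Those lower numbered 7284, against 4599 with median-ratio scaling, 4443 with quantile normalization, 3309 with the length trend removed and 4696 to 7749 with 1 library left out. With only 2 Control libraries, each of them weighs on every value against Control.

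The replicate block by title number gave 8, 3 and 8 called members, as without it, and for all genes 1999 higher and 5146 lower in GC against Control, 3850 and 4501 in GC+GW9662 against GC and 1780 and 6588 in GC+GW9662 against Control. The block by bracketed number gave 2071 and 5258 in GC against Control. Neither replicate block changed a member's call; the samples share only a number.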
